A study of Mus musculus with 10 samples.

Results

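Chromosome 6 carried 10151 of the 129028 DNase I hypersensitive (DHS) sites in the authors' list, 7.87% of all sites, and 26210 of the 329076 footprints. It was chosen by its number of sites per Mb, the highest of the 19 autosomes in that list, so every value of density below is a description with no test. Members are all sites placed on chromosome 6 of the mm9 genome and all footprints inside them. Chromosomes 5 and 7, which are close to it in length, serve as the comparison, with 7335 and 6845 sites. All 3 were read from the same library.

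The nuclei came from 3T3-L1 cells, an established mouse pre-adipocyte line, induced to differentiate 2 days after reaching confluence and harvested 4 h later. The inducing medium held 1 µM dexamethasone, 1 µg/mL insulin, 10% FCS and the phosphodiesterase inhibitor 3-isobutyl-1-methylxantine at 0.5 mM, and the cells had been kept before in DMEM with 10% calf serum. The 2 DNase samples are a single-end and a paired-end sequencing of 1 library, and the authors pooled both with an earlier run of it before calling sites and footprints. There is no untreated or time-zero DNase group here and no replicate, so no difference between chromosomes can be set against a replicate error, and no p-value is given. The 8 RNA samples of the study (scrambled or C/EBPβ shRNA at 0 and 4 h, 2 in each of 4 groups) were not analysed here. Neither list holds read counts or gene expression, so depth is unknown and the identity of the cells is as labelled.

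DNase I cuts chromatin where nucleosomes have been moved aside, mostly at promoters and enhancers, and such stretches appear as DHS sites. A protein sitting on DNA inside a site shields a few bases from the enzyme, which leaves a short dip in the cuts called a footprint. Early in adipogenesis, C/EBPβ, the glucocorticoid receptor and other factors bind together at many of these sites. Mouse chromosome 6 carries, among many other genes, Pparg, which encodes the main transcription factor of fat cell formation, and the Hoxa cluster of developmental regulators. Genes were not placed on the regions named here, because the gene positions at hand belong to another build, and for the same reason no DNA sequence is printed.

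Chromosome 6 had 69.3 sites per Mb between its first site (position 3000177) and the end of its last (149514881), a span of 146.5 Mb. Chromosome 5 had 49.1 and chromosome 7 had 45.8 sites per Mb. The ratio was 1.41 to chromosome 5 (95% interval 1.37 to 1.46) and 1.51 to chromosome 7 (1.47 to 1.56). These intervals come from an exact binomial split of the site counts, cover counting error only and treat sites as independent. The other 18 autosomes had 50.7 ± 4.81 sites per Mb (SD, n = 18 chromosomes), and the highest of them was chromosome 19 with 61.8. DHS sequence covered 4.17% of the chromosome 6 span, 3.12% of that of chromosome 5 and 3.00% of that of chromosome 7.

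Counting all sites, the excess ran from end to end. The span of each chromosome was cut into 10 parts of equal length, and chromosome 6 had more sites per Mb than chromosome 5 and than chromosome 7 in each of the 10. With only the wider 50% of sites it had more in 8 of the 10 against each of them. Its values ran from 57.4 per Mb in the last part to 83.1 in the ninth. The ratio to chromosome 5 was lowest in the fourth part (1.13) and highest in the ninth (2.21), and the ratio to chromosome 7 lay between 1.08 in the eighth part and 3.31 in the third. The large ratios stand where the comparison is thin: in the third part chromosome 7 had 21.4 sites per Mb, and in the ninth chromosome 5 had 37.7. Against the same part of all other 18 autosomes, chromosome 6 was the highest in 5 of its 10 parts. In 4 parts 1 other autosome was higher, and in the last part 2 were.

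Sliding windows of 10 Mb, moved by 1 Mb, gave the same picture. All 136 windows of chromosome 6 lay above 47.4 sites per Mb, the joint density of chromosomes 5 and 7, whereas 85 of 139 windows of chromosome 5 and 66 of 139 of chromosome 7 did. The sparsest window of chromosome 6, from 134000001 to 144000000, still held 57.2 sites per Mb, and 81.9% of the 2080 windows of the other 18 autosomes were sparser than that. The densest, from 124000001 to 134000000, held 88.0 per Mb, above the highest window of any other autosome (80.1). Only 43 of those 2080 windows (2.07%) exceeded the median window of chromosome 6, 69.4 per Mb.

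**Figure D1:**
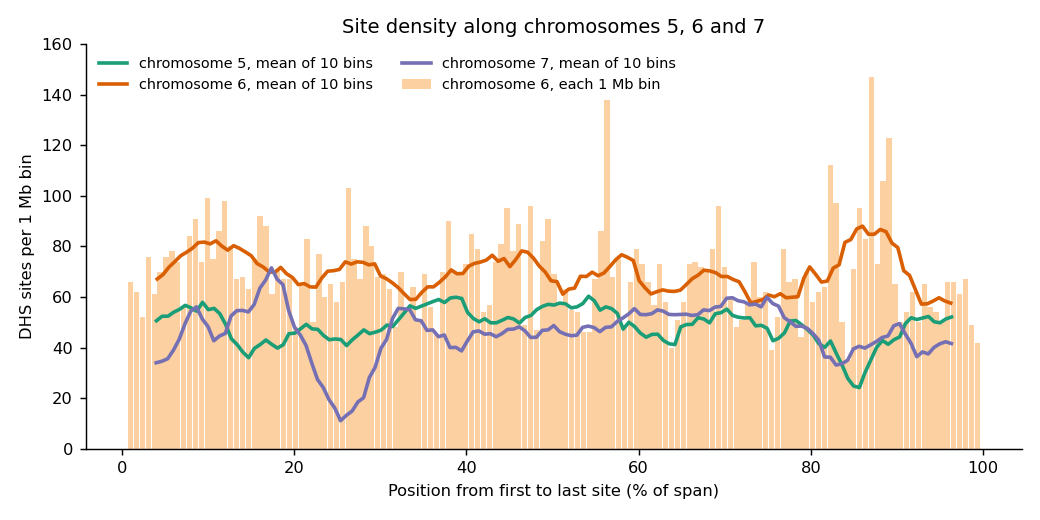
DHS sites in full 1 Mb bins (y axis, sites per bin) against position from the first to the last site (x axis, % of span). Pale bars are the bins of chromosome 6, and lines are means of 10 neighbouring bins on chromosomes 5, 6 and 7. The chromosome 6 line stays between 57.2 and 88.0, while the lines for chromosomes 5 and 7 drop to 24.2 and 11.1.

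Bins of 1 Mb show that the sparsest stretches seen on chromosomes 5 and 7 were missing from chromosome 6. Its 145 full bins (the first and last, partly outside the span, were left out) held 69.3 ± 17.8 sites (SD over bins), with a median of 67. The median was 51 over the 148 bins of chromosome 5 and 48 over the 148 of chromosome 7. The lowest full bin of chromosome 6 held 35 sites. This level was taken from chromosome 6 itself, so counts of bins below it are a description only. Fewer sites than that were held by 29 bins of chromosome 5 (19.6%) and 35 of chromosome 7 (23.6%). Among those 35 were 9 bins of chromosome 7 with no site in the list, and chromosome 5 had a bin with 1. Why these 9 bins are empty was not tested. The ratio of densities to chromosome 7 was 1.42 over bins with at least 1 site. The empty bins also enter the low values of chromosome 7 in the third part, its lowest window, its longest run of sparse bins and its longest gap. They enter its 5th percentile and spread of bins too, and every value per Mb of chromosome 7 or of chromosomes 5 and 7 together. Over the other 18 autosomes together, 14.6% of 2242 bins held fewer than 35 sites, and the highest minimum of any of them was 29, on chromosome 19. At or above 49 sites, the median bin of chromosomes 5 and 7 together, were 133 of the 145 bins of chromosome 6 (91.7%, 95% Wilson interval 86.1 to 95.2%). This interval takes bins as independent, but sites in neighbouring bins of chromosome 6 were related (r of 0.30, rho of 0.34). The 12 bins below that median were scattered, with never more than 2 in a row, whereas chromosome 7 had 12 in a row. The longest run at or above it covered 28 Mb, from 4000001 to 32000000.

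How the surplus was spread over sparse and dense bins depended on the comparison. The 5th percentile of bins was 46.2 sites on chromosome 6, against 27.7 as the median of that percentile over the other 18 autosomes, 18.6 sites more. The median bin exceeded its counterpart by 19.0 sites, the 75th percentile by 19.4, the 90th by 23.7, the 95th by 22.8 (97.8 against 75) and the highest bin by 35. Against chromosome 5 the gap fell from 30.2 sites at the 5th percentile to 15 at the 75th and was 24.2 at the 95th. Against chromosome 7, where the 5th percentile was 0 sites, it fell from 46.2 there to 19 at the median and was 19.8 at the 95th. As a ratio the gaps to the other 18 autosomes shrink, from 1.67 at the 5th percentile through 1.40 at the median to 1.30 at the 95th. The spread of bins relative to their mean was 25.7%, the third lowest of the 19 autosomes, against 34.9% on chromosome 5 and 45.0% on chromosome 7.

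**Figure D2:**
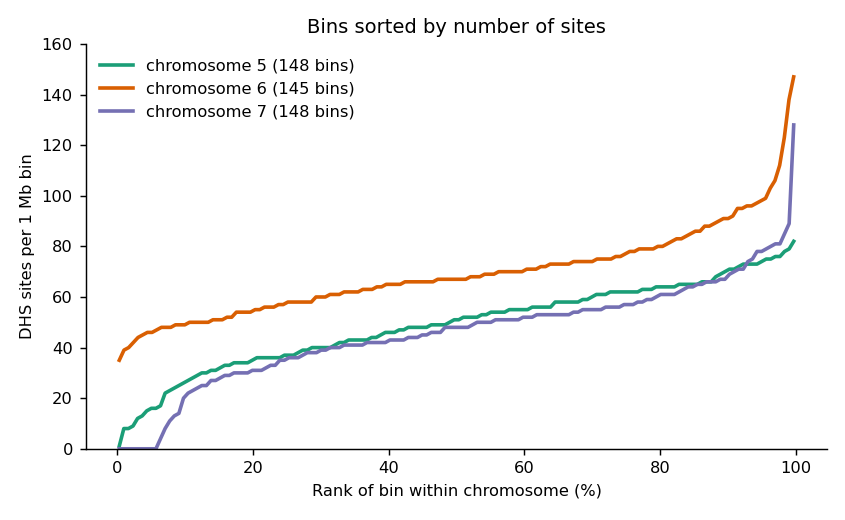
Full 1 Mb bins of chromosomes 5, 6 and 7, each sorted from the fewest to the most sites (x axis, rank in % of the chromosome's bins; y axis, sites per bin). The chromosome 6 curve starts at 35 and lies above both others at every rank, while chromosome 7 starts with 9 bins at 0.

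The 5 bins with the most sites lay in 2 regions, and 4 of them fell in the ninth part of the chromosome. The bin from 130000001 to 131000000 held 147 sites, the most of any on chromosome 6, with a median width of 464 bp and 0.912 footprints per site. Nearby, the bin from 133000001 held 123 sites, that from 123000001 held 112 and that from 132000001 held 106, with 1.28, 0.259 and 0.396 footprints per site. In these 4 bins 69.6 to 73.6% of sites were narrower than 600 bp. Their footprints were 0.159 to 0.781 times the number that the widths of their sites predict, using averages of 50 width classes from the whole list. The remaining bin, from 85000001 to 86000000, differed in site width and in footprints per site. Against the width prediction this bin also fell short, with a ratio of 0.892. It held 138 sites with a median width of 685 bp and 589 footprints, 4.27 per site, and 87.7% of its sites had a footprint. The 5 bins held 6.17% of the sites of the chromosome. Without the 4 dense bins, the other 9 full bins of the ninth part averaged 70 sites, against 86 over all 13.

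The bins with the fewest sites ranged from poor to rich in footprints. The lowest, from 126000001 to 127000000, held 35 sites with 2.66 footprints per site. The next, from 113000001 to 114000000, held 39 sites but 386 footprints. At 9.90 per site this was the most of any bin of chromosome 6, its median site was 816 bp wide and 94.9% of its sites had a footprint. The bins from 96000001, 148000001 and 118000001 held 40, 42 and 44 sites with 0.550, 2.36 and 5.23 footprints per site. The 3 longest stretches without a site measured 282.2 kb (from 125713630 to 125995789), 236.7 kb (from 113802794 to 114039481) and 204.4 kb (from 31896926 to 32101294). The longest measured 1033098 bp on chromosome 5 and 7073388 bp on chromosome 7. Gaps over 100 kb numbered 49 on chromosome 6, 145 on chromosome 5 and 161 on chromosome 7.

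Sites of 600 bp or less made up a larger share of the excess than of all sites. The median site on chromosome 6 was 512 bp wide, with quartiles at 364 and 688 bp, against 536 bp on chromosome 5 and 562 bp on chromosome 7, and it ranked 15th of the 19 autosomes. With the whole list ordered by width and divided into 5 groups of like size, chromosome 6 had 14.9 sites per Mb in the narrowest group (251 to 340 bp) and 14.7 in the second (341 to 470 bp). Chromosomes 5 and 7 together had 9.14 and 8.92, so the ratios were 1.63 and 1.65. The ratio then fell to 1.52 (471 to 600 bp), 1.35 (601 to 793 bp) and 1.20 in the widest group (794 bp and over, 95% counting interval 1.14 to 1.28). The 3 narrower groups supplied 26.4, 26.5 and 21.9% of the difference in sites per Mb, 74.8% together. On chromosomes 5 and 7 they held 19.3, 18.8 and 19.4% of the sites. The widest group supplied 9.75% of the difference and held 21.9% of those sites. Against the other 18 autosomes the 3 narrower groups supplied 71.8%, and they held 19.7, 19.7 and 20.1% of the sites there. Every width group was denser on chromosome 6, and against the other 18 autosomes the ratios went from 1.51 in the narrowest group to 1.23 in the widest.

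Finer classes place the peak of the excess just above the shortest sites. The ratio to chromosomes 5 and 7 together was 1.52 for sites under 300 bp, 1.83 for 300 to 399 bp, 1.56 for 400 to 499 bp and 1.52 for 500 to 599 bp. It was 1.34 for 600 to 799 bp, 1.31 for 800 to 999 bp, 1.12 for 1000 to 1499 bp and 1.20 for 1500 bp and over. For 300 to 399 bp the 2 chromosomes differed, with a ratio of 1.65 to chromosome 5 and 2.05 to chromosome 7. For 1000 to 1499 bp the interval of the ratio to chromosome 7 (0.969 to 1.20) included 1. The width distribution had much the same shape on all 3 chromosomes. It piles up at the minimum of 251 bp, where 4.55% of chromosome 6 sites measured 251 or 252 bp. In steps of 25 bp, the number of sites rises again at 425 to 449 bp on all 3, with 518 sites on chromosome 6, 376 on chromosome 5 and 334 on chromosome 7. A further rise stood at 625 to 649 bp on chromosome 6 (412 sites), and 1 step lower, at 600 to 624 bp, on chromosome 5 (307 sites) and chromosome 7 (312 sites).

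**Figure D3:**
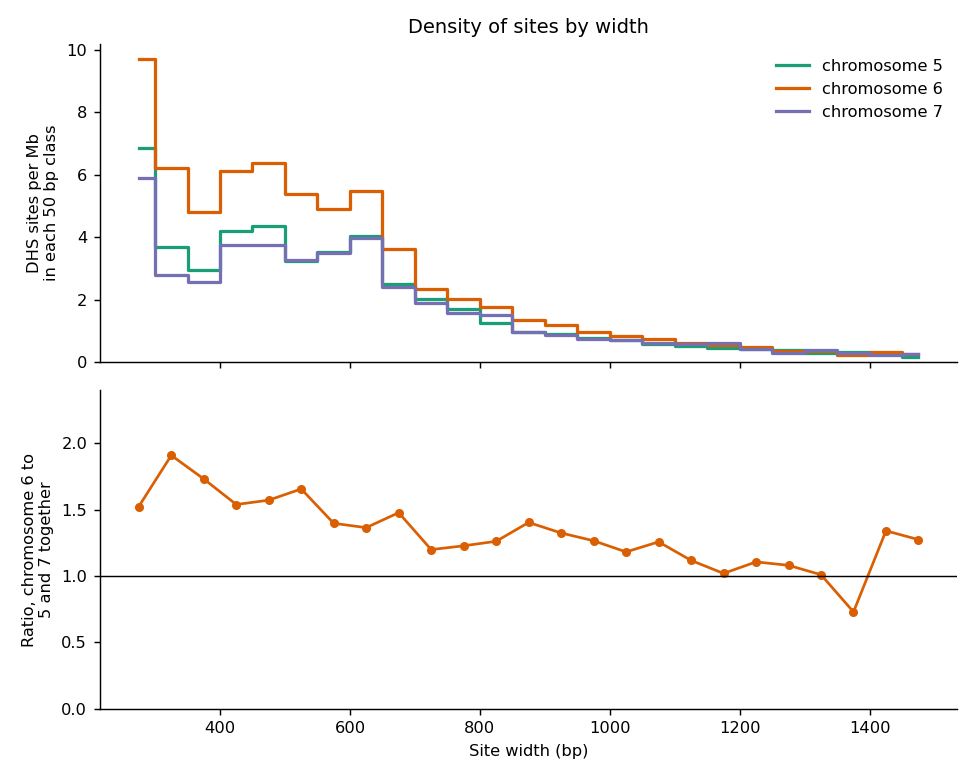
Upper panel: DHS sites per Mb in width classes of 50 bp on chromosomes 5, 6 and 7. Lower panel: ratio of chromosome 6 to chromosomes 5 and 7 together in each class, with a line at 1. The ratio is highest at 300 to 349 bp (1.91) and lies lower, with more scatter, from 1000 to 1499 bp, where a class on chromosome 6 holds 34 to 124 sites.

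Sites without a footprint made up a larger share of the excess than of all sites. Sites without a footprint stood at 37.9 per Mb on chromosome 6, 25.6 on chromosome 5 and 23.1 on chromosome 7, and they made up 61.8% of the difference from chromosomes 5 and 7 together, where they are 51.4% of the sites. Against the other 18 autosomes they made up 56.9% of the difference, close to their 53.8% share of the sites there. To chromosomes 5 and 7 together, the ratio for sites without a footprint was 1.55. Sites with 1 footprint followed at 1.47 and those with 2 to 4 at 1.37. Those with 5 to 9 stood at 1.29 and those with 10 or more at 1.31. In sites with 10 or more, 820 members lay on chromosome 6, 5.60 per Mb against 4.26 on chromosomes 5 and 7. Against the other 18 autosomes the ratios did not fall in this order. They were 1.40 without a footprint, 1.46 with 1, 1.33 with 2 to 4, 1.27 with 5 to 9 and 1.39 with 10 or more. Width and footprints were then crossed at 600 bp, a cut chosen after the values were seen. Narrow sites were denser on chromosome 6 than on chromosomes 5 and 7 together, whether they had a footprint (1.73 times) or none (1.56 times). Among sites of 600 bp and more, those with a footprint showed the smallest ratio of the 4 groups (1.23), and the 728 without one showed 1.49.

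Footprints per site did not follow the rank in density. A site on chromosome 6 held 2.58 ± 5.10 footprints (SD over sites), against 2.86 ± 5.72 on chromosome 5 and 2.83 ± 5.15 on chromosome 7. The other 18 autosomes had a mean of 2.62 ± 0.530 (SD, n = 18 chromosomes), and chromosome 6 ranked 10th of 19. A footprint was present in 4602 sites, 45.3% (95% Wilson interval 44.4 to 46.3%), against 47.8% on chromosome 5 and 49.5% on chromosome 7. Because sites were many, footprints per Mb were also many, 178.9 against 140.5 and 129.5, the fourth highest of the autosomes. Where a site had any footprint, the median number was 4 on all 3 chromosomes.

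The lower number per site went with narrower sites. Given the widths of its sites, chromosome 6 had 1.11 times the footprints predicted from the whole list, chromosome 5 had 1.09 times and chromosome 7 had 0.998 times. The other 18 autosomes ranged from 0.847 to 1.26, and 3 of them were above chromosome 6. Compared at like width, sites of 400 to 499 bp held 0.460 footprints on chromosome 6, 0.365 on chromosome 5 and 0.367 on chromosome 7. Sites of 500 to 599 bp held 1.04, 1.05 and 0.990. At 1500 bp and over the values were 19.6, 19.8 and 16.6. The share of sites with a footprint differed in sign by width. Among sites of 400 to 499 bp it was 25.8% on chromosome 6, and 3 of the other 18 autosomes had more. Among sites of 800 to 999 bp it was 83.1%, and all of the other 18 had more (84.0 to 95.5%).

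In width and score the footprints of the 3 chromosomes differed little. Their median width was 21 bp, as on chromosome 7, and 20 bp on chromosome 5. At the maximum of 30 bp were 11.1% of those on chromosome 6, 10.9% on chromosome 5 and 12.4% on chromosome 7. The score the authors attached to each footprint has only negative values, on a scale the sources used here do not state. Its median was -4.38 on chromosome 6, -4.43 on chromosome 5 and -4.44 on chromosome 7, and the medians of the other 18 autosomes ran from -4.49 to -4.31.

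Footprints were gathered in some megabases and nearly missing from others. Of the 145 bins of chromosome 6, 40 (27.6%) had fewer than 0.5 footprints per site. These 40 bins held 30.4% of its sites and 1.87% of its footprints. The 45 bins (31.0%) with 4 or more per site held 30.1% of its sites and 65.9% of its footprints. Other chromosomes had such bins too. Bins under 0.5 were 23.0% on chromosome 5, 22.3% on chromosome 7 and 23.2% over the other 18 autosomes. Those with 4 or more were 34.5, 25.2 and 21.6% of bins there and held 69.3, 54.6 and 51.6% of the footprints. On chromosome 6 sites in the first kind of bin were narrow, with a median over bins of 427.5 bp, and in the second 663.0 bp. The limits of 0.5, 2 and 4 footprints per site were chosen after the values were seen. The 7 Mb from 74000001 to 81000000 formed the longest poor stretch, with 472 sites of a median width of 400.5 bp and 57 footprints, and 3.18% of these sites had any. Other poor stretches ran from 60000001 to 65000000 (361 sites, 66 footprints) and from 102000001 to 106000000 (318 sites, 9 footprints). The bin from 105000001 to 106000000 had 72 sites and no footprint, and the bins from 104000001 and 45000001 had 96 and 80 sites with 1 footprint each.

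Rich stretches were taken at a wider limit, 2 or more footprints per site, so their lengths cannot be set against those of the poor ones. The longest, from 82000001 to 95000000, had 13 bins. Its 943 sites held 4620 footprints, and 81.7% of them had at least 1. It was followed by 11 Mb from 112000001 to 123000000 (663 sites, 3386 footprints) and 10 Mb from 47000001 to 57000000 (590 sites, 2634 footprints). After the bin from 113000001, the bins with the most footprints per site began at 51000001 (8.02), 91000001 (7.74), 86000001 (7.59) and 108000001 (7.45). Each of these 5 bins held 1.47 to 1.77 times the number of footprints predicted from width. The bins were picked by the same footprint counts, which favours values above 1, so these ratios are a description only. The bin from 108000001 stood between poor neighbours: the bin before it had 0.0625 footprints per site and the bin after it 0.103.

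Over the 10 equal parts of the chromosome, footprints per site ran from 1.41 in the fifth to 3.61 in the eighth, and the share of sites with a footprint from 29.2% in the fifth to 57.8% in the sixth. The 3 parts with the fewest footprints per site (the first, the second and the fifth, at 1.66, 1.67 and 1.41) also had the narrowest median sites, 465 to 474 bp. Those 3 parts held 71.7, 75.2 and 75.4 sites per Mb, more than every other part but the ninth. Fewer than 0.1 footprints per site were found in 14 bins of chromosome 6 (9.66%), which held 1132 sites with a median of 81 per bin. Chromosome 5 had 24 such bins (16.2%) with a median of 56 sites and chromosome 7 had 11 (7.91%) with a median of 42. Over the other 18 autosomes they were 13.0% of the bins with sites, with a median of 49 sites. Such bins were thus a smaller share on chromosome 6 than over the other 18. The level of a bin was related to that of the next: the footprints per site of neighbouring bins had an r of 0.50 on chromosome 6, 0.58 on chromosome 5 and 0.34 on chromosome 7, over pairs of bins that both hold sites.

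**Figure D4:**
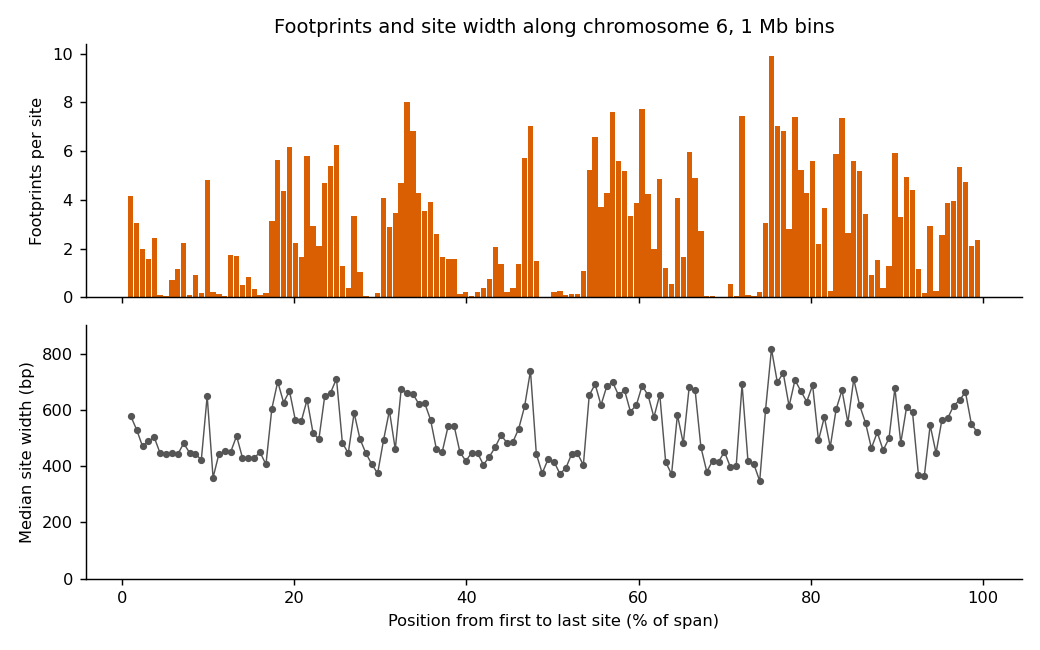
Full 1 Mb bins of chromosome 6 against position from the first to the last site (x axis, % of span). Upper panel: footprints per site. Lower panel: median site width in bp. Both rise and fall together, from 0 footprints per site in the bin from 105000001 to 9.90 in the bin from 113000001, where the median width is 816 bp.

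The excess of sites was larger in footprint-poor megabases. Bins with fewer than 0.5 footprints per site averaged 76.5 sites on chromosome 6, 48.9 on chromosome 5 and 40.5 on chromosome 7, a ratio of 1.70 to both together and 1.55 to the other 18 autosomes. Bins with 4 or more averaged 67.2 sites, against 51.2 and 55.1, a ratio of 1.27 to both and 1.19 to the other 18. On chromosome 6 poor bins thus had more sites than rich ones, and on chromosome 7 fewer. The ratio did not fall at every step between these levels. Bins with 0.5 to under 2 had ratios of 1.54 to chromosomes 5 and 7 together and 1.56 to the other 18. Those with 2 to under 4 had 1.23 and 1.22. Across the bins of chromosome 6, the number of sites and the footprints per site had a Pearson r of -0.21 and a Spearman rho of -0.26 (145 bins). The values were 0.11 and 0.06 on chromosome 5 (148 bins) and 0.27 and 0.27 on chromosome 7 (139 bins with a site). Chromosome 6 had the lowest r and the lowest rho of the 19 autosomes. The number of sites is also the divisor of footprints per site, so these values are coupled, and the bins share a library. Sites against the plain number of footprints had an r of 0.05 and a rho of -0.09 on chromosome 6, 0.36 and 0.29 on chromosome 5, and 0.58 and 0.53 on chromosome 7. Median width and footprints per site had an r of 0.93 on chromosome 6, 0.86 on chromosome 5 and 0.87 on chromosome 7. Footprints are counted inside sites, so a wider site has more room for them and the 2 measures are not independent.

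**Figure D5:**
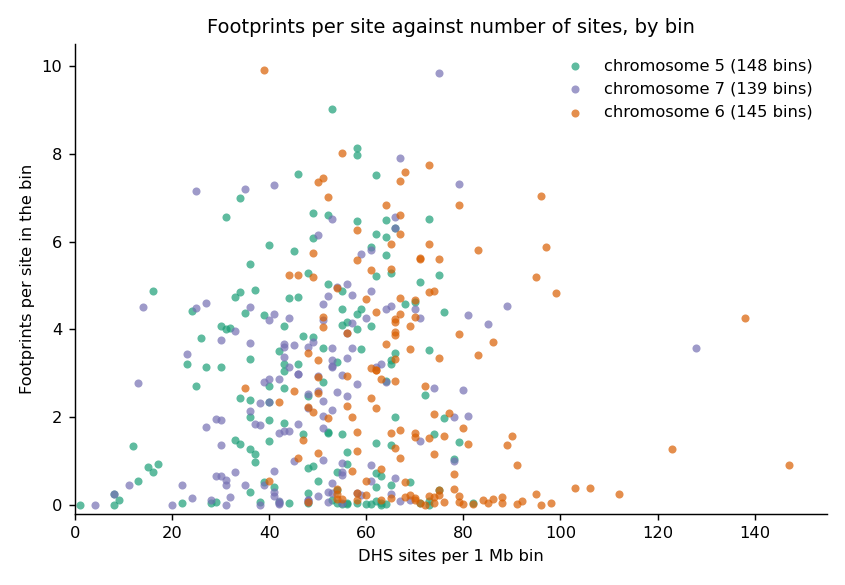
Each point is a full 1 Mb bin with at least 1 site, with its number of DHS sites (x axis) and its footprints per site (y axis), for chromosomes 5, 6 and 7. Chromosome 6 bins below 0.5 footprints per site lie between 48 and 112 sites, while many bins of chromosomes 5 and 7 lie to their left.

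The sites with the most footprints on chromosome 6 were broad and lay apart from each other. A site of 4150 bp from 31029474 to 31033623 held 65, or 15.7 per kb. A site of 4517 bp from 52107997 to 52112513 held 60, and one of 4450 bp from 17255674 to 17260123 held 57. A site of 3540 bp from 108608774 to 108612313 held 55 and had the strongest median score of the 5 (-5.77). The fifth, of 3820 bp from 125113619 to 125117438, held 53. Footprints covered 24.9 to 28.9% of these 5 sites. With only the stronger 50% of footprints by score, 34, 31, 26, 44 and 30 were left in them, in this order.

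The widest sites were in part neighbours of these. The widest of all, 5758 bp from 52112546 to 52118303, began 32 bp after the end of the site with 60 footprints and held 50 of its own. The pair spans 10.3 kb with 110 footprints. The third widest, 5084 bp from 125108484 to 125113567, ended 51 bp before the site with 53 footprints and held 52, so that this pair spans 8.96 kb with 105. The second widest, 5179 bp from 47596564 to 47601742, held 45. The 3 widest had 8.68 to 10.2 footprints per kb, fewer than the 12.8 to 15.7 of the 5 sites with the most footprints.

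Among the 5 footprints with the most negative finite scores, 3 lay in a single site close to the start of the assembled chromosome. That site, 1521 bp from 3150445 to 3151965, held 29 footprints. Their median score was -42.3, and 26 of the 29 were below -20, where the median of the chromosome was -4.38. Its 3 extreme footprints were those from 3150814 to 3150840 (-105.6), from 3151114 to 3151139 (-75.0) and from 3151407 to 3151425 (-73.1). The other 2 were from 9840039 to 9840063 (-79.0), 1 of 5 footprints of an 868 bp site, and from 47721908 to 47721937 (-74.7), 1 of 3 in a 544 bp site.

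Sites on chromosome 6 were also closer to each other. The median distance between neighbours was 7724 bp, the shortest of the 19 autosomes, against 10380 bp on chromosome 5 and 9780 bp on chromosome 7. Joined at 12.5 kb or less, they formed 566 clusters of 5 or more sites, 3.86 per Mb against 2.05 and 2.03. Joined at 5000 bp there were 175 such clusters on chromosome 6. The 566 clusters joined at 12.5 kb held 42.2% of its sites, compared with 29.4% on chromosome 5 and 32.6% on chromosome 7. They held 40.5% of its footprints, a smaller share than of sites. On chromosomes 5 and 7 clusters joined in this way held 33.7% and 35.1% of the footprints. A fixed joining distance yields more clusters wherever sites are denser, so the count is not independent of the density. Sites with no neighbour within 12.5 kb were 14.7% on chromosome 6, 22.9% on chromosome 5 and 22.0% on chromosome 7.

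The largest cluster lay in the dense bin from 85000001. It packed 77 sites into 145.0 kb, from 85615847 to 85760859, with a median distance of 414 bp between neighbours. Of these sites 85.7% had a footprint, but at 2.70 per site the cluster held 0.530 times the number predicted from width. The second, from 130630610 to 130833341, had 49 sites in 202.7 kb with 0.918 footprints per site, and the third, from 133170913 to 133259426, had 35 sites in 88.5 kb with 0.829. Both also held fewer footprints than their widths predict (0.713 and 0.545 times).

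Rare kinds of site were not all raised alike. Sites of 2000 bp or more numbered 119, 7.09% of those in the list, which is below the 7.87% of all sites that lie on chromosome 6. Per Mb they were still denser, at 0.812 against 0.682 on chromosome 5, 0.662 on chromosome 7 and 0.661 over the other 18 autosomes. Sites with 20 or more footprints numbered 177 (9.16%), 1.21 per Mb against 0.943, 0.876 and 0.760. Sites under 400 bp with 3 or more footprints numbered 34 of 298 (11.4%), 0.232 per Mb against 0.114 on chromosome 5 and 0.0870 on chromosome 7. Sites of 1000 bp or more without any footprint numbered 55 of 744 (7.39%). They stood at 0.375 per Mb against 0.241 on chromosome 5, 0.355 on chromosome 7 and 0.271 over the other 18 autosomes.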

How the data were processed

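The authors deposited a list of DHS sites (chromosome, start, end) and a list of footprints (chromosome, start, end and a column headed p-value, per the file headers). Per the labels, both were called on the pooled reads of 1 library. The submitters' processing notes name mm9 and HOMER. The sources used here do not state versions, what HOMER was used for or the footprint caller. The deposited p-value column was treated as a score, since all its values are negative (highest -3.54) and 496 are -Inf. It was used only to rank footprints. A false discovery rate of 0.01 stands in the name of the footprint list, and one of 0 in that of the site list. Site width is the only measure of site size, and depth is unknown.

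Positions are printed 1-based, with BED starts assumed in both lists. Footprints were assigned to sites at an overlap of at least 1 bp. Sites were assigned to 1 Mb bins by midpoint. Intervals of shares are Wilson's (95%), those of ratios exact binomial, both for counting error only. Both take the sites, footprints or bins counted as independent. No columns of other samples were used. Regions named are the 5 bins with the most and the fewest sites and footprints per site (bins of 20 or more sites), the 5 sites with the most footprints, the 3 widest, the 5 footprints with the lowest finite score, the 3 largest clusters and the 3 longest gaps. Members and lists were chosen with earlier results of these data known. The steps recovered the known densities in simulated data. Planned values for genes near sites were not made, for want of mm9 gene positions. Python 3.11.15, numpy 2.4.6, pandas 2.3.3, scipy 1.17.1 and matplotlib 3.10.9 were used.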

Additional observations from a re-analysis of the deposited data

Results flagged for a closer look

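Outside the comparisons above stand 39 footprints on chromosome 6 whose score is -Inf, 0.149% of its footprints, against 0.151% in the whole list. Their positions entered every count, and they were left out wherever scores were used. They lay in 21 bins, with at most 8 in a bin, in sites of a median width of 590 bp that held a median of 2 footprints, against 1000 bp and 10 over all footprints of the chromosome. A width of 30 bp, the largest in the list, was found for 12 of the 39 (30.8%), against 11.1% of all footprints of the chromosome.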

How the results depend on the processing

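No paired analysis was possible because the site and footprint lists each come from a single pooled library. The RNA samples, which do carry shared experiment numbers, were not analysed here. Of 75 values recomputed for the comparisons, 48 stayed within their counting interval (counts within 1.5 times), 26 moved and 1 reversed. By this rule for counts, the fall from 10 to 8 denser parts with the wider 50% of sites is among those that stayed. The cause of each move was not tested beyond what its construction shows. The wider 50% of sites lowered the density ratios to 1.32 (chromosome 5) and 1.31 (chromosome 7) and the share of bins at or above the comparison median to 71.0%, and left 8 of 10 parts denser than each. There, 74.0% of chromosome 6 sites had a footprint and the ratio of footprints per site was 0.948 to chromosome 5 and reversed to 1.03 for chromosome 7. Sites of 400 bp or more gave 1.37, 1.41, 82.1%, 59.2%, 0.927 and 0.975 for the same 6 values. Bins of 2 and 5 Mb raised the share of bins to 98.6% and 100%. Bins with at least 1 site gave a density ratio of 1.42 to chromosome 7. Leaving out bins with fewer than 35 sites on every chromosome, a setting added after the data were seen, gave 1.26, 1.28 and 82.8%. By its construction this setting removed no bin of chromosome 6. The other added setting left out sites of 251 and 252 bp and moved nothing. The stronger 50% of footprints gave ratios of footprints per site of 0.877 and 0.883, 27.5% of sites with a footprint and 79.5% of the difference from sites without one. With all footprints, and the other 18 autosomes as the comparison, the share of the difference was 56.9%. Without 30 bp footprints 41.2% of sites had one. Without the 5% of bins with most footprints 42.2% did, and the ratio to chromosome 7 was 0.936. Joining at 5000 bp gave 175 clusters.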
